A study of Mus musculus with 12 samples.

Results

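The cells described here are the slow or early-cycle crypt stem cells of mouse small intestinal organoids, 1437 of 11987 kept cells (12%). They were chosen by their own transcripts, so the values that chose them are description. A cell was taken when it held at least 5 Olfm4 UMIs (unique molecular identifiers, each marking 1 captured RNA molecule) per 10000 gene UMIs, under 5 of Fabp1 and under 3 of Mki67 and Top2a together. Limits on goblet (Fcgbp, Tff3, Muc2, Agr2), Paneth (Defa17, Defa24, Defa30, Lyz1) and endocrine (Chga, Chgb) transcripts kept out secretory cells. All organoids were wild-type and of BALB/c origin, and all were cultured for 4 days. The control group received no T cells, no blocking antibodies and no recombinant IFNγ or IL-10. The Treg group was cultured with 100000 allogeneic C57BL/6 CD25high FoxP3-GFP+ regulatory T cells per well, stimulated with beads against CD3 and CD28 and with 30 U/ml IL-2, and kept from direct contact with the organoids. Another 3 groups added blocking antibodies at 10 µg/ml to the same co-culture, against IFNγ, against the IL-10 receptor (IL10R), or both. The sixth group received no T cells but recombinant IFNγ at 0.25 ng/ml with recombinant IL-10 at 10 ng/ml. Whether organoids without T cells also received IL-2 or beads is not stated for this experiment. Effects of these therefore cannot be told apart from those of the T cells, and IFNγ and IL-10 were not given singly. Live EpCAM+ (epithelial) cells carried a hashtag antibody for their group and were pooled, so each of 5 libraries holds all 6 groups, and 3 experimental replicates were made. Reads were aligned to the genome of another strain, C57BL/6J, which bears on levels of the polymorphic H2 genes.

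In the small intestine, Lgr5+ stem cells at the crypt base divide, and their progeny pass through a rapidly cycling transit-amplifying stage before they become absorptive or secretory cells. A cell in G1 that is about to replicate its DNA loads the Mcm helicase and makes nucleotides and replication factors, whereas Mki67, Top2a and the mitotic genes accumulate later in the cycle. IFNγ acts through its receptor and JAK kinases on genes such as Irf1, the immunoproteasome and the antigen presentation genes, and IL-10 acts mainly through STAT3.

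The crypt stem cell term of the label held, early cycle held for the median cell, and slow cycling was not measured. In control organoids (257 such cells), mean Lgr5 was 1.31 ± 0.338 UMIs per 10000 (SD, n = 3 replicates), mean Ascl2 0.565 ± 0.159 and mean Gkn3 0.490 ± 0.127. Lgr5 is the receptor that amplifies Wnt signals in stem cells, Ascl2 a Wnt-driven stem cell transcription factor, and Gkn3 a secreted gastrokine. In non-cycling cells with Fabp1, a fatty acid binding protein of absorptive cells, these means were 0.0351 ± 0.0195, 0.0303 ± 0.0170 and 0.00919 ± 0.00449. Cycling crypt cells (the same rule with Mki67 and Top2a at 3 or more, 437 control cells) held 1.04 ± 0.284 Lgr5, 0.488 ± 0.0611 Ascl2 and 0.380 ± 0.123 Gkn3. Lgr5 and Gkn3 were higher in the chosen cells within each of the 3 replicates, and Ascl2 in 2 of them. The gaps were larger for genes of the later cycle. The median cell held 20 ± 1.17 UMIs per 10000 from a list of 42 replication licensing and G1/S entry genes, against 17.3 ± 1.30 in cycling crypt cells and 3.56 ± 0.171 in Fabp1 cells. Its G2 and mitosis genes stood at 4.73 ± 1.07 against 38.8 ± 1.57 in cycling crypt cells, and its replication-dependent histones at 2.14 ± 0.273 against 25.2 ± 3.26. Mcm4, a subunit of the replicative helicase, was at 0.770 ± 0.105 in the chosen cells, 0.445 ± 0.0202 in cycling crypt cells and 0.178 ± 0.0340 in Fabp1 cells. Since Mki67 and Top2a follow the cycle and were used by the rule, these class levels carry no test.

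**Figure D1:**
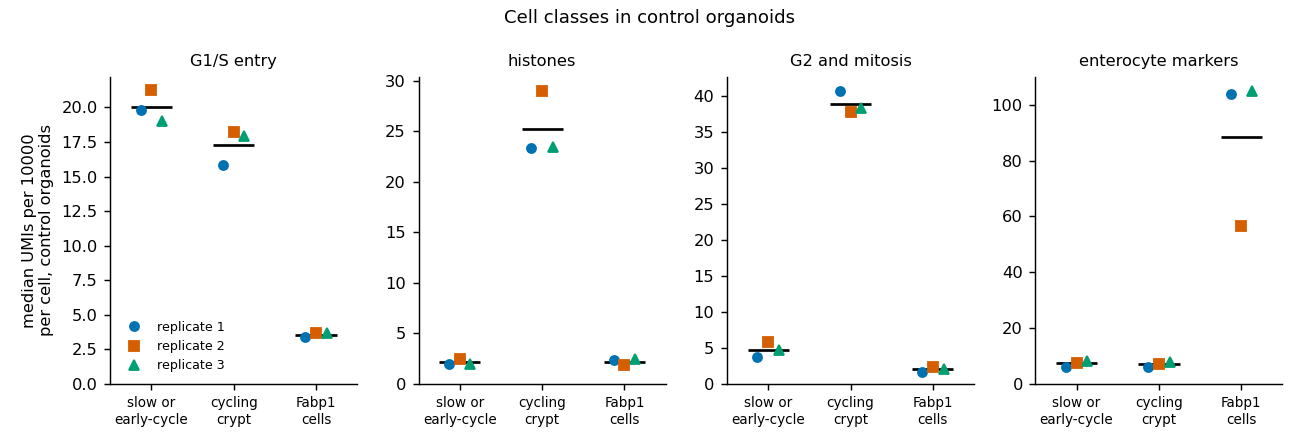
Median UMIs per 10000 per cell in control organoids for 4 gene lists (vertical axes, one scale per panel) in slow or early-cycle crypt stem cells, cycling crypt cells and Fabp1 cells; points are the 3 replicates and bars their means. G1/S entry genes stand at 20 and 17.3 in both crypt classes, while G2 and mitosis genes stand at 4.73 against 38.8.

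The chosen cells were not uniform. Among the 257 control cells the G1/S list ran from 6.63 at the 5th percentile through a median of 20.2 to 45.7 at the 95th, all per 10000 UMIs. The G2 and mitosis list ran from 1.03 through 5.08 to 36.1, so its upper end came near the cycling crypt level of 38.8. Olfm4, an Olfactomedin made by crypt base cells, ran from 6.10 through 22.9 to 64.2. Lgr5 had no UMI in 65 of these cells and Ascl2 none in 70, at a median of 35389 UMIs per cell. Across cells the G1/S list had a Spearman rho of -0.0589 with Olfm4 and -0.0382 with Lgr5, values that share each cell's depth and are given only as description. Over all groups, the 50 cells just inside the Olfm4 limit (5 to 6 per 10000) had a median G1/S level of 20.9 and a mean Lgr5 level of 0.582, and the 62 cells just outside (4 to 5) had 24.3 and 0.736. At the other limit, the 254 cells with Mki67 and Top2a at 2 to 3 had a median G2 and mitosis level of 13.6, and the 242 excluded cells at 3 to 4 had 18.7. The class is therefore a range of the cycle cut at a chosen level.

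Signs of other cells were low. Of 14 T cell markers, 9 (Cd3e, Cd3d, Cd3g, Cd8a, Il2ra, Ptprc, Trac, Trbc2 and Ifng) had 0 UMIs in all of these cells, the most abundant was Ctla4 with 96 UMIs, and the list summed to 2.74 ± 0.873 CPM (UMIs scaled to 1000000) in control and 3.58 ± 1.57 with Treg cells. Enterocyte markers, led by Fabp2, summed to 755 ± 103 CPM in control, 714 ± 35.3 with Treg cells and 555 ± 88.7 with the cytokines. Goblet and secretory progenitor markers, led by Spink4, summed to 150 ± 16.6, 137 ± 25.6 and 74.4 ± 24.4. Paneth (led by Itln1), enteroendocrine (led by Cck) and tuft (led by Pou2f3) markers stayed at or below 11.9 CPM on average in every group. The part of the falls in enterocyte and goblet markers in the results below was not tested.

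The question that the 6 groups pose is how Treg cells, and the IFNγ and IL-10 they can supply, change these stem cells. The share of kept cells that met the rule was first compared. In control it was 11.9, 14.1 and 17.7% in replicates 1, 2 and 3. With IFNγ and IL-10 it was 3.5, 6.83 and 11%, below control within each replicate, with a mean difference of -7.46 percentage points (SD 0.876). Counting error alone gives exact 95% intervals from 2.15 to 5.36% for the lowest of these (20 of 571 cells) and from 13.8 to 22.2% for the highest control value. With Treg cells the share was 10.1, 9.93 and 15.9%, and with Treg cells and anti-IL10R it was 10.5, 9.47 and 11.8%, below control in each replicate with mean differences of -2.58 and -3.99 points. Blocking IFNγ left it at 11.9, 14.3 and 15.7%, and blocking both at 15.1, 15.3 and 18.8%. An exact sign-flip test within 3 replicates cannot go below p = 0.25 (two-sided), and the cytokine, Treg, anti-IL10R and both-antibody groups each reached it (0.3125 after adjustment over 5 comparisons). None of these differences therefore passed a test.

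Olfm4, which the rule uses, was also lower over all cells of the cytokine group. Over all kept cells mean Olfm4 was 9.57, 10.1 and 10.5 UMIs per 10000 in control and 2.32, 4.52 and 4.10 with the cytokines. With no Olfm4 condition the share was 24.0% ± 3.66 in control and 23.2% ± 3.56 with the cytokines, a mean difference of -0.847 points. With the cytokines, fewer cells thus lay above the Olfm4 limit, and the cells compared below are that smaller portion. Within crypt cells (chosen plus cycling), the chosen cells were 34.1, 35.1 and 46.9% in control and 28.6, 26.7 and 48.1% with the cytokines, values that overlap. On that measure the mean difference from control was -2.87 points with Treg cells, -3.70 with anti-IFNγ, -7.15 with anti-IL10R and 0.36 with both antibodies. With no Olfm4 condition the Treg difference was -1.31 points.

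**Figure D2:**
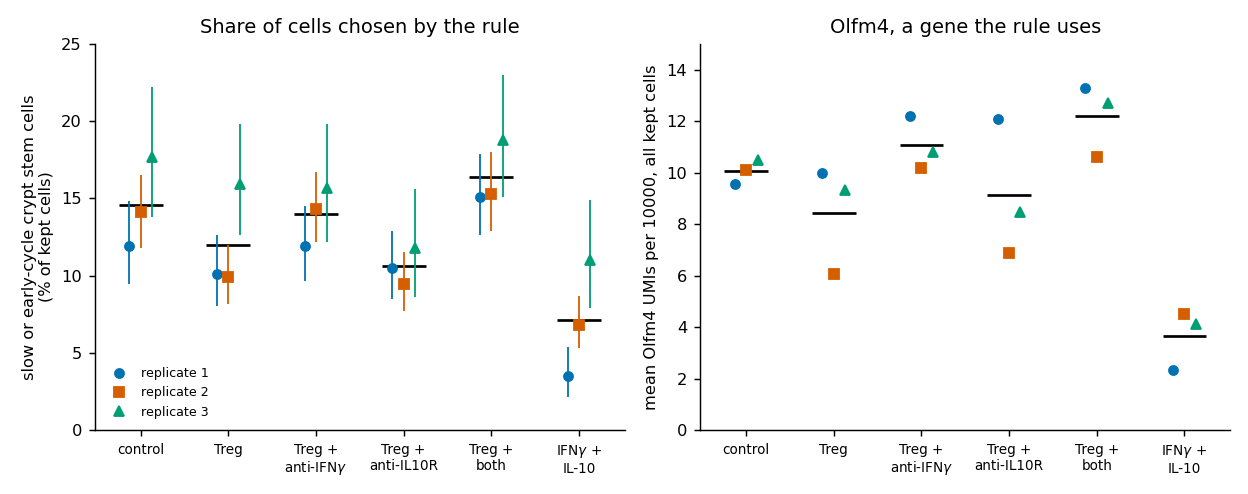
Left, percent of kept cells that were slow or early-cycle crypt stem cells in each group; right, mean Olfm4 UMIs per 10000 over all kept cells. Points are replicates, black bars their means, and vertical lines exact 95% binomial intervals; the cytokine group is lowest within each replicate in both panels.

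The stem cell markers moved unequally within the chosen cells. For gene tests, UMIs were summed over the chosen cells of each group and replicate (18 sums of 873313 to 5159467 UMIs), levels are CPM, and 10596 genes were tested by edgeR's quasi-likelihood test, blocked on replicate, with p-values adjusted by Benjamini-Hochberg over all genes. Summed cells of a group cannot tell fewer expressing cells from less RNA per cell. Gkn3 stood at 49.15, 32.7 and 57.3 CPM in control (replicates 1, 2 and 3) and at 3.44, 0.39 and 2.14 with IFNγ and IL-10. The cytokine sums were all far below the control sums, and the fall of 4.77 on the log2 scale (SE 0.645, adjusted p = 4.66e-06) rests on 7 UMIs against 420, a ratio of 0.0334 with a 95% counting interval of 0.0133 to 0.0694. With Treg cells Gkn3 was at 38.25, 3.68 and 22.3, lower than control in every replicate but most in the second, and missed the threshold (log2 change -1.29, SE 0.307, adjusted p = 0.0796). With both antibodies it was at 54.9, 40.25 and 52.2, and it was higher than with Treg cells alone (log2 change 1.35, SE 0.297, adjusted p = 0.0295). That call is lost with DESeq2 (adjusted p = 0.772), without the replicate block, with Mki67 and Top2a under 1 (adjusted p = 0.0728) and without replicate 2 (where the log2 change is 0.805) or 3. It is also lost when the top hashtag must hold at least 50% of a cell's hashtag UMIs (log2 change 1.14, adjusted p = 0.107), and the both-antibody group had the lowest median hashtag share, 43.5%.

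Lgr5 itself did not pass the test in any comparison. It was at 160.0, 121.8 and 92.4 CPM in control and 138.55, 84.95 and 83.6 with the cytokines (log2 change -0.29, SE 0.157, adjusted p = 0.272), and at 183.9, 108.7 and 120.4 with Treg cells (0.12, SE 0.138, adjusted p = 0.988). Ascl2 fell with the cytokines, from 42.5, 66.8 and 57.3 to 32.1, 50.1 and 38.6 (log2 change -0.43, SE 0.133, adjusted p = 0.0362), with overlapping groups. Mcm4 rose, from 86.1, 66.6 and 88.1 to 129.4, 85.7 and 118.6 (0.46, SE 0.147, adjusted p = 0.0396), also with overlap. The calls of Ascl2 and Mcm4 were lost with DESeq2, without the replicate block and without replicate 1 or 3, and that of Ascl2 also without replicate 2. Among the groups with T cells, Ascl2 averaged 50.1 ± 11.04 (Treg), 44.7 ± 8.95 (anti-IFNγ), 41.6 ± 9.14 (anti-IL10R) and 50.6 ± 8.34 (both) and Mcm4 69.2 ± 18.3, 71.8 ± 12.4, 76.2 ± 1.59 and 80.9 ± 2.34, none past the threshold against control. Olfm4, fixed in part by the rule, averaged 2686 ± 199 CPM in control and 1665 ± 132 with the cytokines and is given as description.

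Of 26 tested crypt base stem cell genes, 5 fell and none rose with the cytokines, where 5.41% of all tested genes fell and 5.07% rose. Besides Gkn3 and Ascl2 these were Igfbp4, an inhibitor of insulin-like growth factors (log2 change -1.37, SE 0.218, adjusted p = 6.14e-05), Sox9, a transcription factor of crypt progenitors (-0.71, SE 0.113, adjusted p = 6.87e-05), and Slc12a2, an ion cotransporter (-0.42, SE 0.0757, adjusted p = 0.000299). The list's median was -0.23 against 0.01 over all genes. Hopx, Cdca7 and Smoc2, among the most abundant members, had log2 changes of -0.07, -0.02 and -0.28 that missed the threshold. The count that fell was 1 without the replicate block, 3 with Mki67 and Top2a under 1 and 9 of 27 with no filter on low counts. With Treg cells none of the 26 passed the test (2 fell with no filter on low counts, and 1 without replicate 1, with sums per library, with Olfm4 at 10 or more, with equal cell numbers and with a top hashtag share of at least 50%), and with Treg cells and anti-IL10R Igfbp4 fell (-0.88, SE 0.180, adjusted p = 0.012), a call lost without the replicate block, without replicate 2 or 3, with Mki67 and Top2a under 1 and with equal cell numbers. Over all tested genes 0.236% passed in either direction with Treg cells and 0.462% with Treg cells and anti-IL10R. In the Wnt list 1 of 21 rose (Ccnd1) and 1 fell (Ascl2) with the cytokines. In the Notch list 2 of 13 fell, the target gene Hes1 (-0.53, SE 0.102, adjusted p = 0.000625) and Lfng, which modifies Notch receptors (-1.33, SE 0.391, adjusted p = 0.0265).

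The largest rises with IFNγ and IL-10 included class II genes and Iigp1, described with the interferon genes below. In all, 537 genes rose and 573 fell, 10.5% of those tested, and 19% had 3 cytokine sums all above or all below the control sums. Cd74, the invariant chain of MHC class II, went from 2.09, 6.23 and 3.91 CPM in control to 1382, 1350 and 1817, with no overlap (log2 change 8.97, SE 0.574, adjusted p = 2.19e-12). H2-Aa, a class II alpha chain, had 2 UMIs in all control sums and 1597 in the cytokine sums, a ratio of 1600 with a counting interval of 442 to 13200. Of 10 tested MHC class II pathway genes 9 rose, including the class II master regulator Ciita (2 UMIs in control against 126), and Ifi30, a lysosomal thiol reductase, fell (log2 change -0.30, SE 0.0864, adjusted p = 0.0212), a call lost when any 1 replicate was left out and without the replicate block. The median change was 7.62, or 6.85 when a gene without control UMIs was set at 3 UMIs in control. Members such as H2-Aa and Ciita reached the minimum count for testing only through groups where they were high. Counts and medians of the class II list, here and below, are therefore description. With no filter on low counts 9 of 11 class II genes rose and 1 fell (median 6.9). Of 17 class I pathway genes 16 rose (median 1.75), and 16 of 18 with no filter on low counts (median 1.71). This list too includes a gene near 0 in control, Nlrc5, with 2 UMIs there against 53 with the cytokines. Counts and medians of the class I list, here and below, are therefore description as well. H2-D1, a classical class I heavy chain, went from 171.15, 209.1 and 227.4 to 680.2, 590.3 and 730.2, and B2m, the class I light chain, from 260.7, 220.9 and 228.7 to 838.2, 485.4 and 639.4. All 6 immunoproteasome genes rose, led by Psmb8, a catalytic subunit, from 11.15, 6.23 and 9.11 CPM to 530.2, 395.4 and 773.75 (6.07, SE 0.360, adjusted p = 1e-12).

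Of 26 tested interferon response genes 18 rose, where 5.07% of all tested genes rose and 5.41% fell. Irf2, a repressor of interferon genes, fell (-0.45, adjusted p = 0.0085). That call was lost without the replicate block, without replicate 3 and with Mki67 and Top2a under 1. The list held 46 measured genes, and some of the 26, such as Iigp1, reached the minimum count only through groups where they were high. Counts of the interferon list, here and below, are therefore description. With no filter on low counts 31 of 45 rose and 1 fell. Irf1, an early transcription factor of the IFNγ response, went from 9.06, 5.79 and 9.11 CPM to 177.5, 84.6 and 131.5 (4.03, SE 0.247, adjusted p = 1.12e-12). Iigp1, an interferon-inducible GTPase, had 3 UMIs in control against 869 (ratio 580, counting interval 198 to 2820), and its cytokine sums were unequal, at 490.1, 92.8 and 145.75 CPM. In the same direction went AW112010, an interferon-inducible transcript (3.81, SE 0.376, adjusted p = 1.79e-08), and Ifitm3, a membrane protein that restricts viruses, which stood at 492.5, 581.3 and 473.5 in control and at 2179, 1491 and 2020 with the cytokines. The receptor genes Ifngr1 and Ifngr2 both fell (-0.50, SE 0.107, adjusted p = 0.00231, and -0.50, SE 0.140, adjusted p = 0.0206), and Pim1, a kinase gene downstream of STAT signals, rose (1.62, SE 0.237, adjusted p = 1.67e-05). These were the 3 calls among 13 genes of the cytokine receptor and STAT3 list, where 10.5% of all tested genes passed in either direction. Il10ra, the ligand-binding chain of the IL-10 receptor, had 0 UMIs in every group, which allows up to 0.310 CPM in control by a limit of 3 UMIs.

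**Figure D3:**
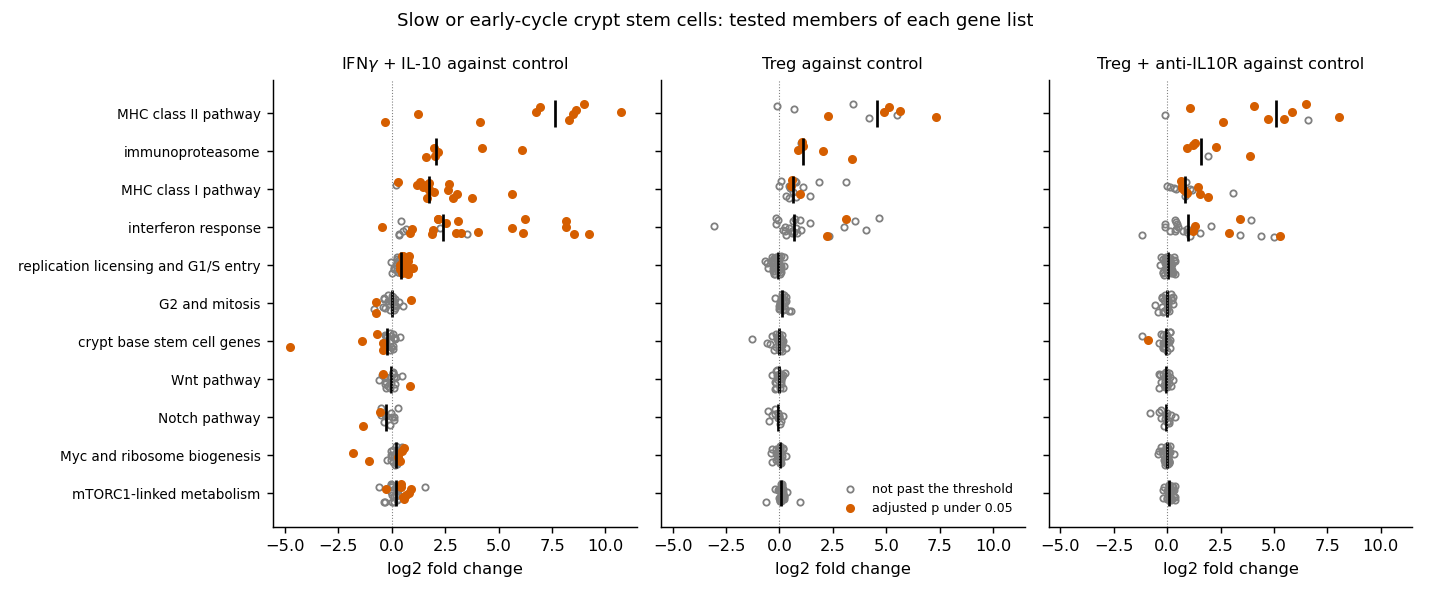
Log2 fold change (horizontal axis) of every tested member of 11 gene lists in 3 comparisons; filled points have an adjusted p under 0.05 (edgeR) and black bars are medians of fitted values. The medians of the MHC class II and I, immunoproteasome and interferon lists lie to the right of 0 in all 3 panels, with single members such as Ifi30 and Irf2 to the left, and 20 of 42 G1/S genes are filled only in the cytokine panel.

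The start regions of 4 of these genes are shown as examples from the class II, immunoproteasome and interferon lists. The sequences are RefSeq's, build GRCm38.p6, from 250 bases before to 50 after the annotated start, read 5′ to 3′ on the gene's strand. Capitals mark matches on either strand to the GAS (gamma-activated sequence) motif TTCNNNGAA, the interferon-stimulated response element core (TTTC, any 2 bases, TTTC) or the class II Y box CTGATTGG, which were found in 8.30%, 3.44% and 4.10% of 32851 promoter windows of this length.
H2-Aa, chr17:34287774-34288073, minus strand: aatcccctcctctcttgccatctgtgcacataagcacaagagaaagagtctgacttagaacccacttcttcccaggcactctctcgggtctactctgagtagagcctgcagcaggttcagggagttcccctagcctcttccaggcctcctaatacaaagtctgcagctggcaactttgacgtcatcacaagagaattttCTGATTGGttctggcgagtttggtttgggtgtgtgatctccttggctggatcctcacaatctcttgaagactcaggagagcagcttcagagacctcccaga
H2-Eb1, chr17:34305617-34305916, plus strand: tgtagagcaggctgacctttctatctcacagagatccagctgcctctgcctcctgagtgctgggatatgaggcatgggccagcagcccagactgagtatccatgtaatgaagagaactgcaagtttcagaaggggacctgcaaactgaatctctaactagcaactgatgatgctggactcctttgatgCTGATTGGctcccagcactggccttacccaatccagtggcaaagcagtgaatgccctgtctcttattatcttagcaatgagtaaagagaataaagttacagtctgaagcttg
Psmb8, chr17:34197945-34198244, plus strand: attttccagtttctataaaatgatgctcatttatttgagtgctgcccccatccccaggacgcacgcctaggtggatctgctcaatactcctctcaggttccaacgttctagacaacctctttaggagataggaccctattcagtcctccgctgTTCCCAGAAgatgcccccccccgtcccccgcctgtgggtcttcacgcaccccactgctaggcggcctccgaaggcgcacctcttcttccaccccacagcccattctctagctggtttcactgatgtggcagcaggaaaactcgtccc
Irf1, chr11:53769764-53770063, plus strand: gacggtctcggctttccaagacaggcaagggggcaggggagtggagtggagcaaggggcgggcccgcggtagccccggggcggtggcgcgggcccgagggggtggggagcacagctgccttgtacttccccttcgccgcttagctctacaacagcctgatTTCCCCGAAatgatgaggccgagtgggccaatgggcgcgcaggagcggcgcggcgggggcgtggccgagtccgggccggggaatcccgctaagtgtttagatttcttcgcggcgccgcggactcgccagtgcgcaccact
The Y box began at -51 in H2-Aa and -62 in H2-Eb1, and the GAS match at -97 in Psmb8 and -90 in Irf1, counted from the annotated start. The Ifitm3 window, not printed, held 1 GAS match from 13 to 21 and 2 matches to the response element core, from 2 to 11 and from 19 to 28, the second of which overlaps the GAS match. The Gkn3 window held none of these letters, and H2-Ab1 and Ciita had no entry. A match is a description of the letters and no measure of binding.

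Of 42 tested genes of replication licensing and G1/S entry, 20 rose and none fell with the cytokines, against 5.07% of all genes rising. The list's median change was 0.41 against 0.01 over all genes. Hells, a chromatin remodeller used in replication, went from 188.6, 185.7 and 169.25 CPM to 404.2, 229.0 and 245.1, above every control sum (log2 change 0.65, adjusted p = 0.000821). Rrm2, the regulated subunit of ribonucleotide reductase, rose by 0.87 (adjusted p = 0.00151), Uhrf1, which carries DNA methylation through replication, by 0.73 (adjusted p = 0.000187) and Mcm10, a replication initiation factor, by 0.97 (adjusted p = 0.000719). In single cells the median list level was 19.8, 21.3 and 19.0 UMIs per 10000 in control and 37.6, 30.2 and 31.1 with the cytokines, higher in each replicate by 13 on average (12.7 after thinning each cell to 10000 UMIs). The 3 cytokine medians lay above all 3 control medians, and the exact sign-flip p was 0.25, the smallest possible, or 0.417 adjusted over 10 list comparisons. The count of 20 fell to 2 without the replicate block, 2 with Mki67 and Top2a under 1, and 11, 13 and 5 without replicates 1, 2 and 3, while the median change stayed between 0.38 and 0.49. Replicate 1 of the cytokine group held only 20 of these cells. Over all groups, the median list level was 14.6 in chosen cells with no Mki67 or Top2a and 28.5 at 2 to 3. Cells under 1 averaged 8.25% of kept cells in control, where the whole class was 14.6%. With the cytokines they averaged 2.79%, where the class was 7.12%, so fewer chosen cells lay at the low end. Under 1 the median change was 0.403. The part of this shift within the rule's limit in the G1/S rise was not tested.

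Counts in the other growth and cycle lists are read against the 5.07% of all genes that rose and the 5.41% that fell. Of 24 G2 and mitosis genes Bub1, a spindle checkpoint kinase, rose and Cenpf and Ube2c fell (median -0.01), and 1 of 12 histone genes rose, all under the limit that the rule sets on Mki67 and Top2a. Among 16 G1 cyclins, kinases and inhibitors, Ccnd1 (cyclin D1) rose from 135.9, 135.15 and 116.7 CPM to 317.2, 197.3 and 212.2 (0.87, SE 0.131, adjusted p = 2.62e-05), while Ccnd2 (cyclin D2, -0.50, adjusted p = 3.1e-05), the inhibitor Cdkn1a (-1.25, adjusted p = 0.00553) and E2f5, a repressor of the E2F family (-0.62, adjusted p = 0.029), fell. In the Myc and ribosome biogenesis list 4 of 31 rose, including the nucleolar proteins Npm1 (0.38, adjusted p = 7.03e-06) and Ncl (0.48, adjusted p = 6.14e-05), and Mycl and Mxd4 fell. Myc itself was at 105.6, 109.3 and 97.2 in control and 98.5, 94.7 and 127.2 with the cytokines. In the mTORC1-linked list 7 of 30 rose, among them Mthfd2 (0.91, adjusted p = 0.000161) and Psat1 (0.67, adjusted p = 0.0224) of the serine and folate pathways, and Scd2 fell. With Treg cells none of the G1/S, Myc or mTORC1-linked genes passed the test. Only 0.236% of all tested genes passed there, a share at which a count of 0 in these lists says little. A positive change was seen in 25 of 30 mTORC1-linked genes (median 0.06), 17 of 31 Myc genes (0.00) and 9 of 42 G1/S genes (-0.08). The median G1/S level per cell with Treg cells was 18.9, 23.3 and 17.6.

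**Figure D4:**
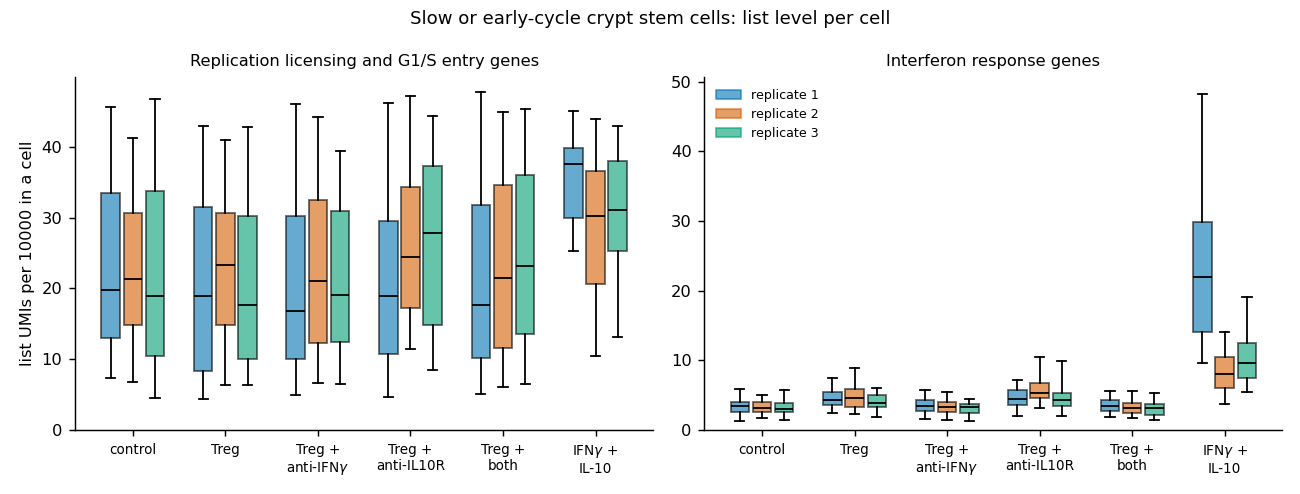
UMIs per 10000 per cell of the G1/S entry list (left) and the interferon response list (right) in slow or early-cycle crypt stem cells by group and replicate; boxes span the quartiles, lines are medians and whiskers the 5th and 95th percentiles. G1/S medians of 37.6, 30.2 and 31.1 with the cytokines stand above control, with wide overlap between cells.

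Among genes that fell most with the cytokines were Ttr, the carrier of thyroxine and retinol binding protein (log2 change -3.45, SE 0.301, adjusted p = 1.14e-09), Sult1d1, a sulfotransferase (-2.34), Adh1, an alcohol dehydrogenase that acts on retinol (-2.26), Fxyd3, an ion pump regulator (-2.04), Ctsh, a lysosomal protease (-1.99), Ghr, the growth hormone receptor (-1.96), Clca4b (-1.95), Apob, the scaffold of chylomicrons (-1.79), and Tstd1 (-1.76), all with adjusted p of 0.00015 or less. Adh1 stood at 260.4, 163.6 and 263.0 CPM in control and 20.6, 38.4 and 66.4 with the cytokines. For the lists that follow, the shares over all tested genes were again 5.07% up and 5.41% down. Areg, the EGF family ligand amphiregulin, was the only rise among 10 EGF genes (2.68, SE 0.387, adjusted p = 1.43e-05), and of 7 injury-revival genes Areg, which is in both lists, rose and 3 fell (Ccn1, Krt7 and Cxadr). Of 22 cell death genes 4 rose, including Tnfsf10, the death ligand TRAIL (2.48, adjusted p = 1.67e-10), and Gsdmd, the pore-forming gasdermin (1.91, adjusted p = 0.00656), and Casp4 fell. Of 13 enterocyte markers 6 fell, including Anpep (-2.20) and Sis (-1.34), both brush border enzymes, while Slc5a1, the glucose transporter, and Ada, adenosine deaminase, rose (0.57 and 0.77). Spink4 was the only one of 4 tested goblet and secretory progenitor markers to change (-0.93, adjusted p = 0.000152). None of the 2 tested Paneth markers or the 1 tested tuft marker passed, and no enteroendocrine or T cell marker reached the minimum count.

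With Treg cells fewer genes passed the test, 22 up (0.208% of those tested) and 3 down (0.0283%), together 0.236%, while 4.94% had sums that did not overlap with control. Those that rose were again led by class II genes. Cd74 was at 32.85, 509.3 and 147.25 CPM, above every control sum but spread widely between replicates (5.66, SE 0.634, adjusted p = 2.71e-06). H2-Aa, H2-Ab1, H2-Eb1 and H2-DMa also rose, so that 5 of 10 class II pathway genes passed, 3 without replicate 2. So did 5 of 6 immunoproteasome genes, with Psmb8 at 42.5, 139.7 and 81.4 CPM (3.39, SE 0.410, adjusted p = 1.02e-05). Of the class I list 3 of 17 rose (B2m, Tapbp and H2-D1), and of the interferon list 2 of 26 (Irf1 and Ifi47). Ifitm3 stood at 1104, 1327 and 1113 (1.19, SE 0.111, adjusted p = 1.34e-07). Tnfsf10 rose (1.15, SE 0.207, adjusted p = 0.00373). The 3 genes that fell were Ttr, Tstd1 and Ccnd2, and none of them kept its call without replicate 3. Ttr went from 64.1, 45.4 and 72.5 to 39.4, 18.9 and 39.0 (-0.94, SE 0.174, adjusted p = 0.00469), and Ccnd2 from 512.4, 486.3 and 339.4 to 426.6, 358.5 and 287.3 (-0.33, SE 0.0715, adjusted p = 0.0399). Without the replicate block, which removes differences between replicates, 6 genes rose and none fell, and 1 class II, 2 immunoproteasome and no class I genes passed. Without replicate 3 no class I gene passed either.

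Cd74 was found in a large share of these stem cells, unequally between replicates. With Treg cells 35.2, 82.7 and 58.2% of them held a Cd74 UMI, against 8.22, 18.7 and 13.1% in control cells of the same kind, at similar median depths (35675 to 37496.5 against 34805 to 36853 UMIs). After thinning to 10000 UMIs per cell the shares were 18.3, 70.4 and 40.3% against 0, 5.69 and 0%. With the cytokines all 120 cells held Cd74, thinned or not. In the co-culture with anti-IFNγ the unthinned shares were 5.68, 14.7 and 11.7% and with both antibodies 2.65, 13.4 and 10.5%, below the control shares in each replicate. Thinned, they were 1.14, 6.29 and 6.67% with anti-IFNγ, above control, and 0, 3.15 and 2.63% with both antibodies.

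With IFNγ blocked, antigen presentation genes stood near their control levels. Against Treg cells alone, 27 genes fell (0.255% of those tested) and 2 rose (0.0189%) with anti-IFNγ, and 34 fell (0.321%) and 8 rose (0.0755%) with both antibodies, 0.274% and 0.396% in all. Sums of 4.25% and 5.27% of genes did not overlap with the Treg sums. Cd74 stood at 1.56, 4.46 and 3.14 CPM with anti-IFNγ (-6.10, SE 0.656, adjusted p = 1.66e-06) and at 0.71, 4.02 and 3.44 with both (-6.28, SE 0.654, adjusted p = 8.33e-07). Psmb8 stood at 8.45, 5.81 and 10.3 and at 7.81, 8.5 and 17.5. The fall with anti-IFNγ covered 6 of 10 class II, 5 of 6 immunoproteasome, 5 of 17 class I and 2 of 26 interferon genes, and with both antibodies 7, 5, 6 and 2. Over all genes, the 27 falls with anti-IFNγ became 4 without the replicate block and 13 without replicate 2 or 3, and the 34 with both antibodies became 5 and 15. The genes that rose with anti-IFNγ were Ttr (0.78, SE 0.175, adjusted p = 0.0411) and Tstd1 (0.60, SE 0.110, adjusted p = 0.00588), and with both antibodies Ttr, Tstd1, Gkn3, Fxyd3 (0.85, adjusted p = 0.0223) and S100g, a calcium binding protein (0.96, adjusted p = 0.0365), were among the 8. Neither rise with anti-IFNγ kept its call without the block or without replicate 2 or 3, and DESeq2 kept 1. Of the 8 with both antibodies, none was kept without the block or without replicate 2, and DESeq2 kept 1. Against control, neither group had a called gene by edgeR or DESeq2 (0% of 10596), and 3.86% and 4.71% of genes had sums that did not overlap with control. At an unadjusted p under 0.05 there were 339 genes with anti-IFNγ and 506 with both antibodies. For Ifitm3 the difference from control was -0.06 (SE 0.112) and -0.16 (SE 0.112), whereas for Cd74, near the lower limit of detection, the SE was 1.30 and 1.32.

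Antigen presentation genes also rose with the IL-10 receptor blocked. Against control, 39 genes rose (0.368%) and 10 fell (0.0944%), 0.462% in all, and 5.86% had sums that did not overlap. Cd74 was at 62.6, 736.9 and 413.1 CPM, Psmb8 at 43.7, 180.9 and 168.85, and Irf1 at 48.5, 71.3 and 48.85. Of the lists, 8 of 10 class II, 8 of 17 class I, 5 of 6 immunoproteasome and 5 of 26 interferon genes rose. Without the replicate block these counts were 6, 0, 2 and 2. Without replicate 3 they were 5, 0, 5 and 2, and without replicate 2 class I fell to 3 and interferon to 2. Those that fell included Ttr (-1.01, SE 0.180, adjusted p = 0.00252), Igfbp4, Cttnbp2 (-0.82, adjusted p = 0.00917), Tstd1 (-0.61, adjusted p = 0.00361) and the chemokine Ccl25 (-0.47, adjusted p = 0.0468). None of the 10 falls was called without the replicate block or without replicate 3, where no gene fell, and 1 gene fell without replicate 2. Slc5a1 rose and Ccnd2 fell. These calls and those of the Treg group share the control sums. Set directly against Treg cells alone, no gene passed by edgeR or DESeq2, with 397 at an unadjusted p under 0.05 and 3.84% with sums that did not overlap. Cd74, Irf1 and Psmb8 were higher in each replicate by 0.83 (SE 0.342), 0.67 (SE 0.196) and 0.50 (SE 0.269) on the log2 scale, each with an adjusted p of 1. Median G1/S levels per cell were 18.9, 24.5 and 27.9, and overlapped with control.

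**Figure D5:**
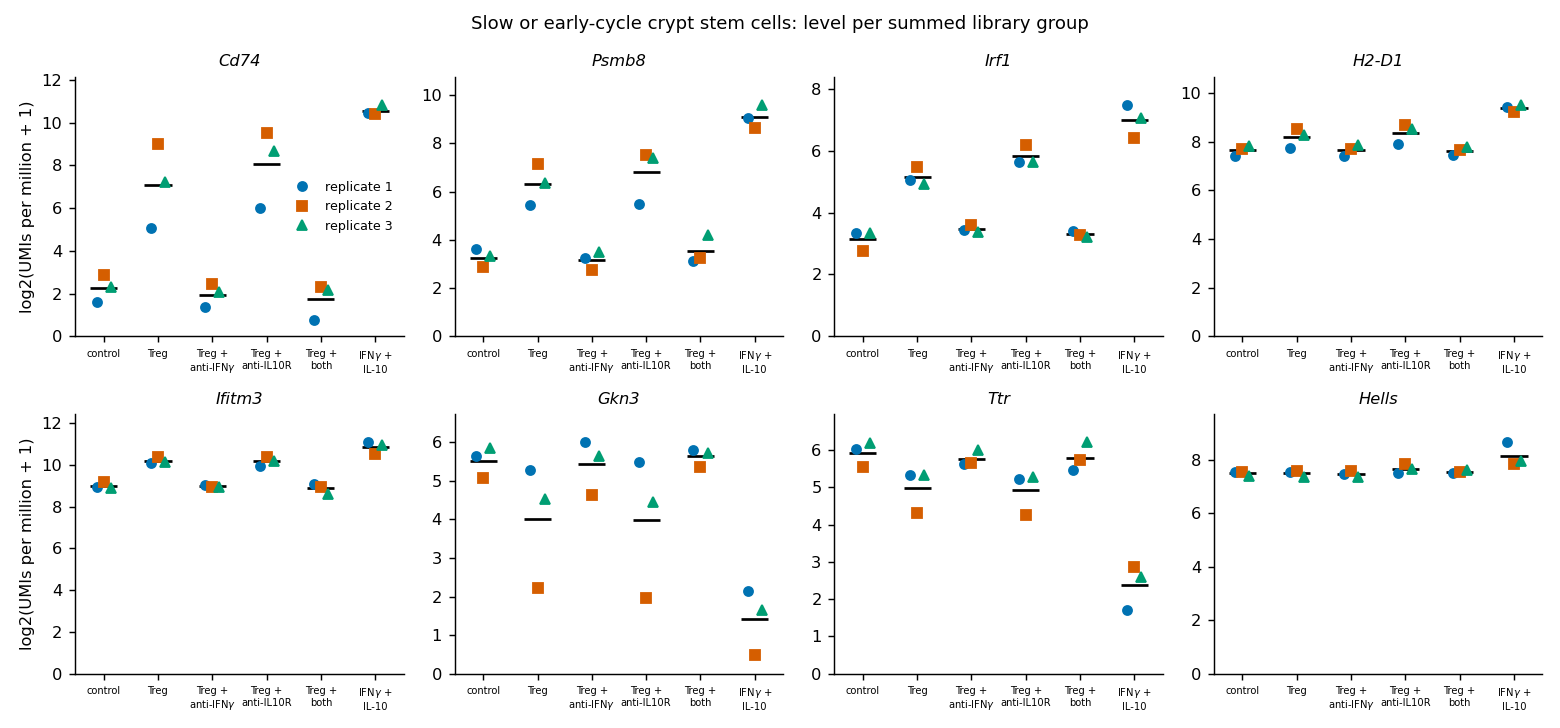
Log2(CPM + 1) of 8 genes in slow or early-cycle crypt stem cells, by group; points are replicate sums and bars means. Cd74, Psmb8, Irf1 and Ifitm3 are high with Treg cells, with Treg cells and anti-IL10R and with the cytokines, and near control with anti-IFNγ; Gkn3 and Ttr are lowest with the cytokines.

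Whether cycling crypt cells responded differently was tested directly as an interaction. For the cytokines 1 of 11348 genes passed (0.00881%), with 6.05% at an unadjusted p under 0.05 and 11 genes by DESeq2. It was Hmgb2, a chromatin protein of proliferating cells, with a log2 change of 0.26 in the slow or early-cycle cells and -0.35 in cycling crypt cells (difference 0.61, SE 0.107, adjusted p = 0.0179). The classes are split on Mki67 and Top2a, and any part of that split in the Hmgb2 difference was not tested. For Treg cells none passed (DESeq2 also none), with 4.11% of genes at an unadjusted p under 0.05. The median class II change with the cytokines was 7.59 in the chosen cells and 8.20 in cycling crypt cells, the median class I change 1.74 and 1.80, and the median G1/S change 0.41 and 0.26. For the crypt base stem cell list the medians were -0.23 and 0.04, and for the Wnt list -0.05 and 0.07. No gene of these lists passed the interaction test. An adjusted p that misses the threshold does not show that the classes respond alike.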

How the data were processed

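Single-cell 3′ RNA-seq with hashtag antibodies was read as the UMI counts the authors deposited, made with Cell Ranger 7.0.0 on mm10 (GRCm38), and Seurat 4.0.5 is also named in the submitters' processing notes. No cell annotation was used here. Libraries 1 and 2 form replicate 1, libraries 3 and 4 replicate 2, and library 5 replicate 3. A sixth library, left out of the study's analysis, entered no comparison. The 5 libraries held 35985 barcodes and from 128917456 to 223155304 UMIs each. Hashtags were called with HTODemux (Seurat 5.3.0, centred log-ratio, quantile 0.99), which also marks doublets between groups. Doublets within a group were not sought. A singlet was kept if its UMIs lay between 10000 and 90000, its detected genes between 3000 and 10000, and its mitochondrial share did not exceed 8.5%. Limits for secretory genes were 10 (goblet), 50 (Paneth) and 10 (endocrine) UMIs per 10000. Between 9 and 24 barcodes were shared by any pair of libraries, and none among the chosen cells.

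UMI sums were tested with edgeR 4.0.16 (TMM, filterByExpr, quasi-likelihood, all 6 groups in the fit, replicate block, adjusted p under 0.05), with DESeq2 1.42.0 as an alternative. The replicates are the study's experimental replicates, and p-values measure the spread between these 3. Same-numbered sums deviated together (r from 0.112 to 0.668 over 45 pairs), and cells of a replicate shared libraries, so the numbers pair the samples. On simulated data for the cytokine comparison (10427 genes), the test recovered 32.4, 69.7 and 92.4% of genes changed by 0.5, 1 and 2 on the log2 scale, with 6 false calls. Shares and per-cell medians were compared by exact sign-flip tests. Intervals and limits cover counting error only. Named genes were the marker genes, the 10 (main comparisons) or 5 largest changes in each direction at 20 CPM or more and of 1 sign in all replicates, and the most abundant members of each list. Genes outside this rule were named after their values were seen: Ada, Anpep, Bub1, Casp4, Cdkn1a, Cenpf, Ciita, E2f5, Gsdmd, Ifi47, Lfng, Mcm10, Mthfd2, Mxd4, Myc, Mycl, Pim1, Psat1, Rrm2, Scd2, Sis, Slc5a1, Sox9, Tapbp and Uhrf1. The 14 genes of the selection rule were kept out of lists. The cells, lists and rules were chosen with earlier results of these data known.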

Additional observations from a re-analysis of the deposited data

Results flagged for a closer look

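Hmgb2 was marked because its response to the cytokines differed between slow or early-cycle crypt stem cells and cycling crypt cells by the interaction test, with a difference of 0.607 on the log2 scale (adjusted p = 0.0179, edgeR). The call was absent without the replicate block and without replicate 1 or 3. Any part in it of the split of the classes on Mki67 and Top2a was not tested.

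The sixth library, which the comparisons did not use, held 63 cells that met the rule. Cd74 was above its control level of 3.11 CPM (1 UMI in 11 cells) in 3 groups there. It stood at 81.5 with Treg cells (23 UMIs in 13 cells), at 184 with Treg cells and anti-IL10R (42 UMIs in 10 cells) and at 1400 with the cytokines (151 UMIs in 5 cells). With both antibodies it was 3.08, and with anti-IFNγ no UMI was seen in 11 cells. Of 12 groups of library shares and Olfm4 levels, none had a library far from the other 4.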

How the results depend on the processing

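Counts of changed genes depended on the setting, and the cause was not tested. Without the replicate block the numbers that rose and fell were 100 up with 87 down (cytokines against control), 6 up with 0 down (Treg against control), 14 up with 0 down (anti-IL10R against control), 0 up with 4 down (anti-IFNγ against Treg) and 0 up with 5 down (both antibodies against Treg). With DESeq2 the numbers that rose and fell were 1 up with 18 down (anti-IFNγ against Treg) and 1 up with 22 down (both antibodies against Treg). With no filter on low counts the numbers that rose and fell were 52 up with 20 down (Treg against control), 5 up with 3 down (anti-IFNγ against control), 69 up with 46 down (anti-IL10R against control), 10 up with 3 down (both antibodies against control), 29 up with 49 down (anti-IFNγ against Treg), 11 up with 5 down (anti-IL10R against Treg) and 46 up with 80 down (both antibodies against Treg). With sums per library the numbers that rose and fell were 34 up with 6 down (Treg against control), 52 up with 18 down (anti-IL10R against control), 13 up with 33 down (anti-IFNγ against Treg) and 19 up with 65 down (both antibodies against Treg). With Olfm4 at 10 or more the numbers that rose and fell were 32 up with 6 down (anti-IL10R against control). With Mki67 and Top2a under 1 the numbers that rose and fell were 129 up with 136 down (cytokines against control), 14 up with 3 down (Treg against control), 23 up with 3 down (anti-IL10R against control), 1 up with 14 down (anti-IFNγ against Treg) and 5 up with 41 down (both antibodies against Treg). With at most 60000 UMIs the numbers that rose and fell were 35 up with 6 down (anti-IL10R against control) and 1 up with 23 down (anti-IFNγ against Treg). With equal cell numbers the numbers that rose and fell were 257 up with 369 down (cytokines against control), 28 up with 6 down (anti-IL10R against control) and 3 up with 15 down (anti-IFNγ against Treg). With a top hashtag share of at least 50%, added after seeing the data, the numbers that rose and fell were 3 up with 23 down (both antibodies against Treg). Leaving out each replicate in turn, the counts ran from 181 to 447 up with 238 to 456 down (cytokines against control), from 13 to 47 up with 0 to 12 down (Treg against control), from 0 to 2 up with 0 to 1 down (anti-IFNγ against control), from 17 to 72 up with 0 to 44 down (anti-IL10R against control), from 0 to 1 up with 0 to 0 down (both antibodies against control), from 1 to 8 up with 13 to 34 down (anti-IFNγ against Treg), from 0 to 0 up with 0 to 2 down (anti-IL10R against Treg) and from 0 to 45 up with 15 to 65 down (both antibodies against Treg). The class difference for the cytokines went from 1 gene to 0 without the replicate block, 11 with DESeq2 and 28 with no filter, and from 0 to 1 when each replicate was left out, and for Treg cells from 0 to 4 with no filter. Leaving out a replicate, the anti-IFNγ share differed from control by -1.01 to 0.134 points. The G1/S level per cell with Treg cells turned from -0.121 to 0.50 after thinning, with values from -1.16 to 0.51 when a replicate was left out, and with both antibodies these ran from -0.977 to 2.21. For Mcm4 with Treg cells the log2 change ran from -0.351 to 0.0403. Of 1287 refits of 99 named gene results under 13 settings, 1095 kept direction and side of the threshold, 184 lost the call, 7 gained it and 1 turned direction. Without the block 52 of these calls were lost. With the top hashtag at 80% the gene test was not run, because 0 cells were left in replicate 3 of the anti-IL10R group and 3 in replicate 2 of control. Shares were computed at that limit, from few cells, and their differences from control were -5.97 (Treg), -6.32 (anti-IFNγ), -8.90 (anti-IL10R), 18.4 (both antibodies) and -8.85 points (cytokines). With Mki67 and Top2a under 1 the share difference with Treg cells was -0.622 and with both antibodies 0.711 points. Without the Olfm4 condition the share difference with the cytokines was -0.847 points. Depth limits what can be read for class II genes outside the induced groups, where 3 UMIs correspond to 0.258 to 0.374 CPM among the groups with T cells or control.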

Other observations

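The hashtag signal differed between groups of the chosen cells. The top hashtag held a median of 96.4% of a cell's hashtag UMIs in the cytokine group, 84.2% with Treg cells, 74.4% with anti-IL10R, 59.8% with anti-IFNγ, 58.9% in control and 43.5% with both antibodies. With both antibodies it was 39.4, 33.3 and 72.6% in replicates 1, 2 and 3. Gene tests were repeated with a top hashtag share of at least 50%, and shares of cells with at least 80%. Median depth was 40198.5 UMIs per cell with the cytokines and between 34557 and 36805 in the other groups. In replicate 1 of the both-antibody group the share of chosen cells was 10.9% in library 1 and 19.4% in library 2.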
